A study of Homo sapiens with 6 samples.

Results

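The regions described here are TLE3 binding regions that lay near an end of a single protein-coding gene and were found in control cells but not after FOXA1 silencing. Peaks of 4 deposited lists that share at least 1 bp were merged on chromosomes 1 to 22 and X. A region was a member when it held a peak of both control (siNS) libraries and of neither FOXA1-silenced (siFOXA1) library, and when it lay within 1 kb of an end of exactly 1 protein-coding gene of RefSeq. The rule gave 8038 members of 72272 merged regions, and of 20732 regions with the same pattern of peaks anywhere in the genome. Of the latter, 1948 lay near ends of 2 or more genes and 10746 lay over 1 kb from any gene end. The members were chosen by the presence of a peak in both siNS lists and its absence from both siFOXA1 lists, so that pattern is given as a description and is not tested.

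The study mapped where TLE3 binds by ChIP-seq, in which DNA bound by a protein is pulled down with an antibody and sequenced. It used MDA-MB-453, an established human breast cancer line, and asked whether TLE3 needs FOXA1 to bind. One group was treated with siFOXA1, which silenced FOXA1 transiently, and the other with the control siNS. Each group has 2 immunoprecipitated libraries, which the labels call biological replicates, and all cells were cross-linked with a second reagent ahead of formaldehyde. Both groups come from 1 cell line without any other labelled genetic change, and the labels give no dose, time or measure of FOXA1 after silencing. Peak lists carry no count of a transcript, so neither the silencing nor the cell type could be checked on expression.

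TLE3 belongs to the Groucho/TLE family of corepressors, which do not bind DNA themselves and are brought to it by transcription factors of several families, among them forkhead, HES/HEY, RUNX and TCF/LEF proteins. They are known to recruit histone deacetylases and to lower transcription of the genes they are brought to. FOXA1 is a forkhead factor of luminal breast cells that opens chromatin, mostly at distal enhancers, for other factors such as hormone receptors. Promoters of widely expressed genes are often rich in CpG dinucleotides and in binding sites of SP/KLF and ETS factors, while the TATA box is more typical of tissue-restricted genes.

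The promoters under the strongest members show how varied the sequence at these regions was, from windows rich in GC boxes to one with none of the marked motifs. Each line holds the 250 bases before the gene start from RefSeq, build GRCh38.p14, read 5′ to 3′ along the gene. The windows are chr16:1430828-1431077 on the plus strand for PERCC1, and on the minus strand chr19:55069521-55069770 for RDH13, chr17:75182960-75183209 for SUMO2, chr2:165953777-165954026 for TTC21B and chr10:97334730-97334979 for FRAT2. MB is given for contrast, since its region held a peak in all 4 libraries; its window is chr22:35623355-35623604 on the minus strand. Capitals mark matches on either strand to CCGGAAG (ETS), TGTTTAC (forkhead), GGGCGG (SP/KLF GC box), the palindrome of NRF1, TGACGTCA (CREB/ATF), TGANTCA (AP-1), TATAAA (the TATA box), AAGATGGCG (YY1), CACGCG (HES/HEY type) and CACGTG (E-box).
PERCC1: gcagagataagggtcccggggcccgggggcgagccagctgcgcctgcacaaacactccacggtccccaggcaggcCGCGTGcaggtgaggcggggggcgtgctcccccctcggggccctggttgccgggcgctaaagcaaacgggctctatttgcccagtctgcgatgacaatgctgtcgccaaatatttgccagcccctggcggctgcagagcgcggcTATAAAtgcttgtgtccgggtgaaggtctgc
RDH13: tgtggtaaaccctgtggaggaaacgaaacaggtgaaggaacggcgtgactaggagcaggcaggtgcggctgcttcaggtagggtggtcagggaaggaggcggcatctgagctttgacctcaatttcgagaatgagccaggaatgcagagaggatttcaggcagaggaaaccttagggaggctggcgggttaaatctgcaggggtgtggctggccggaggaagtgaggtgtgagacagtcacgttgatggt
SUMO2: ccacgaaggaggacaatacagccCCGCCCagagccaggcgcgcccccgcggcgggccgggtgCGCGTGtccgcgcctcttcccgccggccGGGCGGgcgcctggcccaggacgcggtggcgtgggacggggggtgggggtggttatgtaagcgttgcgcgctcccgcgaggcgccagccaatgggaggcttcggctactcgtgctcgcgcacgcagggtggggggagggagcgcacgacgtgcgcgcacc
TTC21B: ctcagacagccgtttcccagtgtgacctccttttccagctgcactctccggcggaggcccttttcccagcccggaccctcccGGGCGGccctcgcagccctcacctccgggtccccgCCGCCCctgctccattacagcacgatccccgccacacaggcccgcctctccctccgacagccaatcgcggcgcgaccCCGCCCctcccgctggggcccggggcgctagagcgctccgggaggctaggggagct
FRAT2: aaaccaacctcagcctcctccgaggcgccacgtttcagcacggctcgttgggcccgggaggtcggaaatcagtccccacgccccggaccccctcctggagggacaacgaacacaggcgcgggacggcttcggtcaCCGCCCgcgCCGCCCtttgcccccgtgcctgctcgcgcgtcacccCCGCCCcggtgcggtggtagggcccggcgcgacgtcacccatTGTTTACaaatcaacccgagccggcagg
MB: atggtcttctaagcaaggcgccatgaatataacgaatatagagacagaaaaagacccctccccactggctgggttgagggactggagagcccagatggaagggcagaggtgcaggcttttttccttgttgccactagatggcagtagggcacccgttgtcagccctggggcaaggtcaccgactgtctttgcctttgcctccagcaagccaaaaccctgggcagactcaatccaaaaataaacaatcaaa

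In the PERCC1 window, 66.4% of bases were G or C and the marked matches were 1 TATA box and 1 CACGCG. The SUMO2 window had 76.4% GC with 2 GC boxes and 1 CACGCG, and the TTC21B window 72.8% GC with 3 GC boxes. FRAT2 had 70.4% GC, 3 GC boxes and the only forkhead match of the 6 windows. RDH13 had 56.0% GC and no marked match, but it held 1 TGTGGT (RUNX) and 1 CTTTGA (TCF/LEF), which are not marked here. The MB window had 51.6% GC, 4 CpG dinucleotides and no marked match. MB does not stand for all regions with a siFOXA1 peak. At PRRT1B, which also held a peak in all 4 libraries, the same window had 68.4% GC, 20 CpG dinucleotides and no marked match. Over all promoter windows under regions with a siFOXA1 peak, median GC content was 69%, beside 67.7% under members. A match is a run of letters and not a measured site.

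The strongest member lay at PERCC1, a gene known for its part in forming enteroendocrine cells, at chr16:1430405-1431462. The authors' deposited score of its best peak was 570 in siNS 1 and 487 in siNS 2. What the score measures is not given in the sources used here, so it served to order the peaks of 1 list and no more, and a rank percentile of 100 is the top. The region at RDH13, a retinol dehydrogenase, scored 422 and 294 in siNS 1 and siNS 2 (chr19:55068698-55069791). At SUMO2, which encodes a small ubiquitin-like modifier, the scores were 369 and 263 (chr17:75181885-75183795). All 3 covered the start of the gene, and their nearest siFOXA1 peaks were 214419, 259226 and 85451 bp away.

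Of the 12 top-ranked members, 10 lay at the start of their gene. TTC21B, needed for transport inside cilia, had scores of 304 and 223 (chr2:165953202-165954283). LFNG, the glycosyltransferase that modifies Notch receptors, had 306 and 187 in a region 281 bp upstream of its start (chr7:2510899-2512248). PTPN1, which encodes the tyrosine phosphatase PTP1B, had 238 and 186 (chr20:50509659-50510914). USP3, a deubiquitinase of histones, had 258 and 158, and NFIA, a transcription factor of the nuclear factor I family, had 217 and 171. The corepressor gene CTBP2 had 272 and 155 in a region 4361 bp wide (chr10:125158635-125162995). EXOC3L4 (308 and 224) and VEGFB, a growth factor of the VEGF family (199 and 195), held the top members at the end opposite to the start. Each of these regions stood at or above the 98.3 percentile in both siNS lists.

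Not all of these strong members were far from siFOXA1 peaks. FRAT2, a binding partner of GSK3 that promotes Wnt signalling, had scores of 227 and 191 (chr10:97333650-97335487), and a siFOXA1 peak lay 1572 bp away. At NFIA the distance was 2451 bp. The widest member, 5629 bp at CCND1 (cyclin D1; chr11:69640099-69645727), had scores of 113 and 104, and a siFOXA1 peak lay 593 bp from its edge. The other 4 widest were SPHK1 (5405 bp), MMP17 (5254 bp), ZMIZ1 (5005 bp) and PPP1R9B (4842 bp), whose nearest siFOXA1 peaks were over 10 kb away.

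Across all members the best peak had a median score of 27.1 in siNS 1 (interquartile range 15.9 and 45.4, range 2.78 to 570) and 16.2 in siNS 2 (interquartile range 9.67 and 28.2, range 2.11 to 487). As ranks, the medians were the 76.2 percentile of siNS 1 and the 61.8 percentile of siNS 2. The members thus stood higher in siNS 1, where 6854 of 8038 (85.3%) had the higher rank. Spearman's rho of the scores between both lists was 0.767 over these 8038 regions, a description over regions that share each library. The median region was 1024.5 bp wide (quartiles 740 and 1412), and the best peaks were 920 bp wide in siNS 1 and 722 bp in siNS 2 at the median. Centres of the best peaks of both libraries were 101.5 bp apart at the median (quartiles 43 and 205.5).

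**Figure D1:**
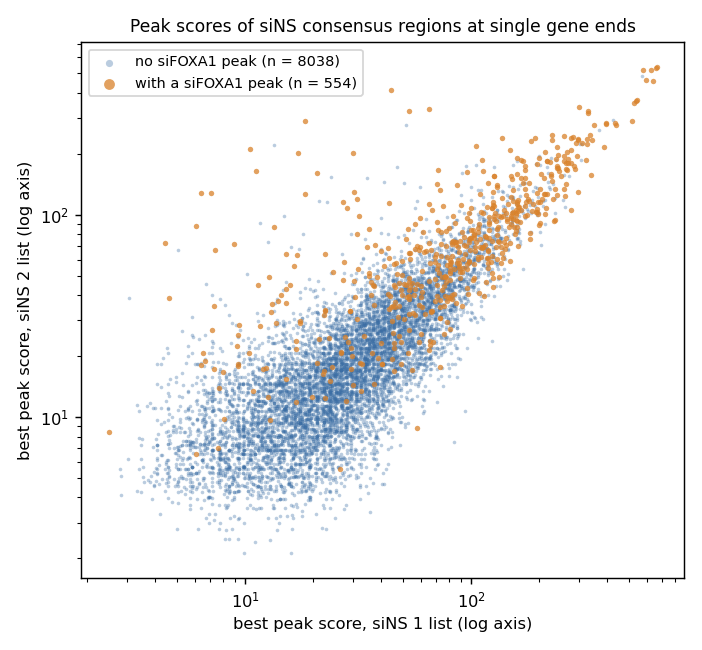
Best peak score in the siNS 1 list (x, log axis) and the siNS 2 list (y, log axis) of each siNS consensus region at a single gene end, 1 point per region; blue points are the 8038 members and orange points the 554 regions with a siFOXA1 peak. The orange points lie mostly at high scores (medians 86.9 and 69.4), and a few of them have a high score in siNS 2 alone.

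The 2 control libraries did not place all members alike. A rank at least 20 percentile points higher in siNS 1 was found for 2592 of 8038 members (32.2%), and one at least 20 points higher in siNS 2 for 166 (2.07%). Members near the end opposite to the start went the second way in 40 of 376 cases (10.6%, exact 95% binomial interval 7.71 to 14.2%), against 91 of 6128 members at a start (1.48%, 1.20 to 1.82%). The widest gap in favour of siNS 2 was 83.5 points at the start of VPS37D, where siNS 1 gave a score of 3.04 and siNS 2 one of 38.9. The widest gap the other way lay at the start of GRB10, at the 82.1 percentile of siNS 1 and the 1.43 percentile of siNS 2. Binomial intervals here and below cover counting error over regions only. Regions are not replicates of a condition, and the lists give no reads or depth.

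Within 1 kb of a single gene end there were 8592 siNS consensus regions, those with a peak of both siNS libraries. Of these, 93.6% had no siFOXA1 peak and are the members, and over all 24967 siNS consensus regions the share was 83%. In the other 554, a peak of 1 or both siFOXA1 libraries was present. The siFOXA1 lists are shorter, with 12249 and 13754 peaks against 45105 and 46586 in siNS 1 and siNS 2, and list length moves with this share. When each list was limited to its 12249 highest-scoring peaks, 2404 regions met the rule and the share was 84.8%. Of the 8038 members, 2379 (29.6%) overlapped one of these. What made the siFOXA1 lists shorter was not tested, and depth, immunoprecipitation yield and binding cannot be told apart from peak lists.

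The share without a siFOXA1 peak varied with strength. In 10 equal bins of mean siNS rank it was 99.7% in the weakest bin, 97.1% in the seventh, 89.6% in the ninth and 62.4% in the strongest (exact 95% binomial interval 59.1 to 65.7%). The median width of members was 571 bp in the weakest bin and 1546 bp in the strongest. Regions with a siFOXA1 peak had median scores of 86.9 in siNS 1 and 69.4 in siNS 2, at the 95.2 and 93.2 percentiles, and a median width of 1448 bp. In the siFOXA1 lists their best peaks stood near the middle, at the 49.8 and 44.3 percentiles. Those peaks were also narrower there, with median widths of 336 and 338 bp against 1251.5 and 1178 bp for the same regions in siNS 1 and siNS 2. Such widths were usual for the siFOXA1 lists, whose medians over all peaks were 336 and 347 bp. In siNS 1 and siNS 2 the medians over all peaks were 419 and 446 bp. The strongest regions with a siFOXA1 peak stood higher in the siFOXA1 lists than the middle ranks given above. MB, which encodes myoglobin, had scores of 658 and 529 in siNS 1 and siNS 2 and of 48.3 and 56.5 in siFOXA1 1 and siFOXA1 2, the 95.7 and 95.9 percentiles of the latter. PRRT1B had 627 and 518 in the siNS lists and stood at the 87.2 and 82.1 percentiles of the siFOXA1 lists. HID1 had 664 and 539 and stood at the 84.2 and 84.0 percentiles. Scores of different lists have no common scale.

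Members lay mostly at gene starts, as did siNS consensus regions at single gene ends in general. Gene direction was known here for the genes of 6504 members. Of these, 6036 (92.8%) were near the start alone, 376 (5.78%) near the other end alone and 92 (1.41%) near both ends of a short gene. The start was thus near 6128 (94.2%, exact 95% binomial interval 93.6 to 94.8%). The same share was 345 of 442 (78.1%, 73.9 to 81.8%) for regions with a siFOXA1 peak, 67.3% of 275 siFOXA1 consensus regions and 16 of 26 siFOXA1-only regions (61.5%, 40.6 to 79.8%). Near the start alone were 91.8% of all 6946 siNS consensus single-end regions of known direction, members included, beside 92.8% of members. Regions with a siFOXA1 peak were stronger, and both sets were also counted above 1 rank cut-off, a comparison chosen after seeing the data. Among members ranked at or above the median of regions with a siFOXA1 peak, 266 of 284 (93.7%, 90.2 to 96.2%) lay at the start, against 180 of 218 (82.6%, 76.9 to 87.4%) of the regions with a siFOXA1 peak above the same cut-off. The median ranks in these sets were 95.6 and 97.4, so strength was made more alike but not equal, and its part in the difference was not tested further. These members are called strong members below.

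**Figure D2:**
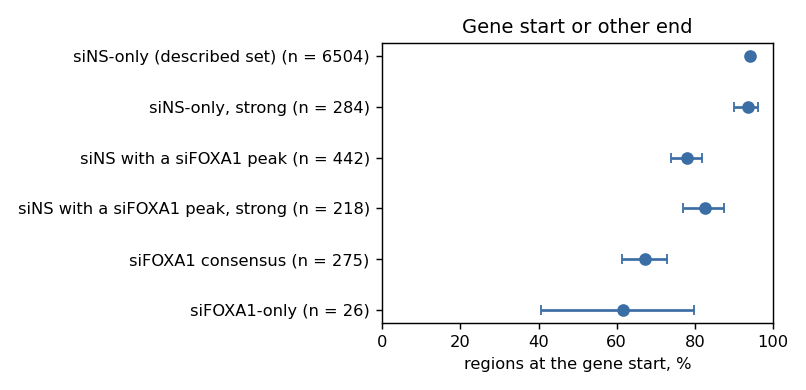
Share of regions at the gene start (x, percent of regions whose gene direction is known) for 6 sets of single-end regions (y), with exact 95% binomial intervals over regions; "strong" means a mean siNS rank at or above the median of the regions with a siFOXA1 peak. Members stand at 94.2% and strong members at 93.7%, above the sets that hold siFOXA1 peaks.

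The share at the start was also taken per library, over all its single-end peaks. These come from the same lists that the rule used, and those of siNS 1 and siNS 2 include the peaks of the members. The comparison is thus not independent of how the members were chosen. Of single-end peaks with known gene direction, 88.6% lay at the start in siNS 1, 90.9% in siNS 2, 71.8% in siFOXA1 1 and 70.5% in siFOXA1 2. Both siNS libraries were above both siFOXA1 libraries, and the difference of means was 18.6 percentage points (89.8% ± 1.63 against 71.1% ± 0.901, SD, n = 2 each). A two-sided exact permutation test gave p = 0.333, the smallest that 2 libraries against 2 allow. With lists of equal length the difference was 22.6 points. These shares rest on 9308 and 8802 peaks in siNS 1 and siNS 2, and on 386 and 410 in siFOXA1 1 and siFOXA1 2.

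Member regions sat on and just inside the start. The centre of a region was 128 bp downstream of the gene start at the median (quartiles 26.5 bp upstream and 328.25 bp downstream), 28.7% were centred upstream, and 59.4% lay within 250 bp of the start. For regions with a siFOXA1 peak the median was 155.5 bp downstream, and 41.7% (exact 95% binomial interval 36.5 to 47.1%) lay within 250 bp. Of all members 80.2% covered the gene end itself, and 24.9% also lay within 1 kb of an end of a long noncoding RNA gene. Genes with their start near a member region could have other starts that the table of 1 start and 1 end per gene does not show, and positions of exons and introns were not used here.

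**Figure D3:**
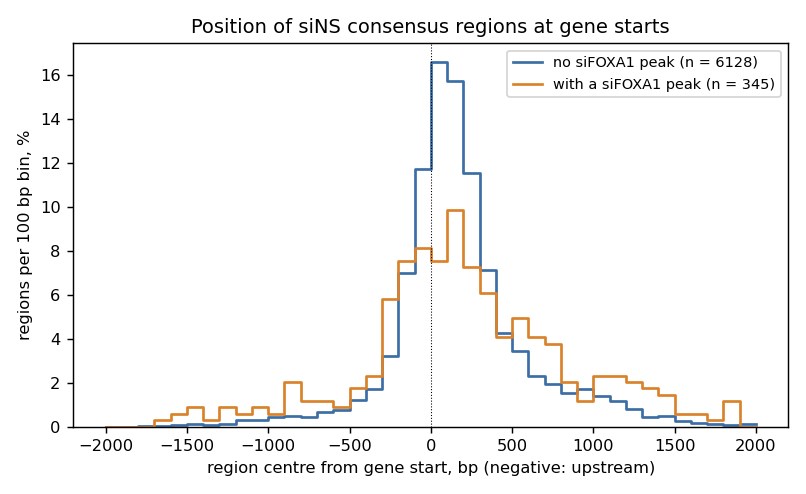
Position of region centres relative to the gene start (x, bp, negative values upstream; y, percent of regions per 100 bp bin) for 6128 members at starts (blue) and 345 regions with a siFOXA1 peak (orange). The members peak between 0 and 200 bp downstream, and the orange line is lower there and wider.

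At the threshold of 1 kb, the last members inside lay 999 bp from the start of SAPCD2 (scores 78.6 and 85.7 in siNS 1 and siNS 2) and 997 bp from the far end of MACO1 (12.6 and 73.6). The first regions outside lay 1001 bp from an end of FGFR4 (9.24 and 3.54) and 1002 bp from TMBIM1 (13.1 and 16.2).

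Most genes had a single member. Of 19974 protein-coding genes, 7407 (37.1%) had a member at an end: 6813 had 1, 560 had 2, 31 had 3 and 3 had 4. IRF2BPL had 3 members at its far end and 1 at its start, the latter scoring 141 and 101 in siNS 1 and siNS 2 (chr14:77026642-77029596). NRTN, which encodes the growth factor neurturin, and ACTB (beta-actin) were the other genes with 4. ACTB has its strongest member at chr7:5529099-5531244 with 61.4 and 30.2, and the weakest of its members scored 4.86 and 4.91. Members occurred at both the start and the far end of 208 of 6006 genes of known direction. The median gene with a member was 33.3 kb long, counted once per member, against 24.2 kb for all protein-coding genes.

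siFOXA1 peaks near the members were uncommon but not absent. A siFOXA1 peak lay within 1 kb of 133 members (1.65%), within 10 kb of 1054 (13.1%) and within 100 kb of 67.3%, and the shortest distance was 14 bp. For the 10746 regions of the same peak pattern away from gene ends the shares were 3.02%, 20.5% and 74.0%. The median distance was 58.5 kb for members and 41.6 kb for the latter. A siFOXA1 peak lay between the ends of 1881 of 7407 genes with a member (25.4%), against 20.9% of all protein-coding genes. A further single-end region with a siFOXA1 peak was found at 127 of the 7407 genes with a member. Over all 19974 protein-coding genes, 537 had a siNS consensus single-end region with a siFOXA1 peak.

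The promoters under the members were CpG-rich. Of 15812 promoter windows of RefSeq (300 bases, 250 before and 50 after the start), 5248 were covered in part or whole by a member. Their median GC content was 67.7%, against 62.7% in all promoters and 55.7% in 6769 promoters with no siNS consensus region at an end of the gene. The ratio of observed to expected CpG was 0.865, 0.762 and 0.417 in the same order. Under regions with a siFOXA1 peak median GC content was 69%, above that of member promoters, and the CpG ratio was 0.826, below theirs. Windows with at least 55% GC and a ratio of at least 0.65 made up 83.5% (exact 95% binomial interval 82.4 to 84.5%) of member promoters, 56.9% of all promoters and 30.2% of promoters without a region. Among 283 promoters under regions with a siFOXA1 peak the share was 74.9% (69.4 to 79.9%), and above the rank cut-off it was 77.6% (70.4 to 83.8%) of 161 such promoters and 83.0% (77.6 to 87.5%) of 241 under strong members, intervals that overlap.

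The forkhead sequence TGTTTAC, the type bound by FOXA1, was rare at member promoters. It was present on either strand in 119 of 5248 windows (2.27%, exact 95% binomial interval 1.88 to 2.71%), against 2.68% of all promoters and 3.37% of promoters without a region. Under regions with a siFOXA1 peak it was present in 11 of 283 (3.89%, 1.96 to 6.85%), an interval that holds the member value. The second form TGTTTGC gave 2.23% at members and 3.17% in all promoters. Windows rich in GC hold fewer letters from which these AT-rich sequences can be made, and the part of base composition in these shares was not tested.

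Sequences bound by other partners of the TLE family were mixed. CACGCG, the type bound by HES/HEY repressors, was present in 20.5% of member promoters and in 14.8% of all promoters, and CACGTG in 10.1% and 8.82%. TGTGGT (RUNX) was present in 7.85% against 11.0%, and CTTTGA (TCF/LEF) in 7.20% against 11.0%. For regions with a siFOXA1 peak the shares were 27.2% for the first, 15.2% for the E-box, 8.13% for RUNX and 7.07% for TCF/LEF. Above the rank cut-off CACGCG was present in 30.3% (exact 95% binomial interval 24.6 to 36.5%) of promoters under strong members and in 31.7% (24.6 to 39.5%) of those under regions with a siFOXA1 peak, so the 2 sets did not differ beyond counting error there. The sequences of RUNX and TCF/LEF are poorer in G and C than those of HES/HEY, and here too the part of base composition was not tested.

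Most sequences known from general promoters were more frequent at member promoters than in all promoters. GGGCGG, the GC box of SP/KLF factors, was present in 77.9% of member promoters and 58.3% of all promoters, and GCCNNNGGC (AP-2) in 37.5% and 28.2%. CCGGAAG (ETS) was present in 18.6% (exact 95% binomial interval 17.6 to 19.7%) against 14.1%, and in 9.89% (6.68 to 14.0%) of promoters under regions with a siFOXA1 peak. Above the rank cut-off the ETS share was 12.03% (8.21 to 16.8%) at strong members and 8.07% (4.37 to 13.4%) at regions with a siFOXA1 peak, intervals that overlap. AAGATGGCG (YY1) was present in 3.83% against 2.69%, TGACGTCA (CREB/ATF) in 3.56% against 2.56%, and the NRF1 palindrome in 2.44% against 1.77%. At strong members the ETS share was thus not above that of all promoters, nor was the YY1 share (1.66%, 0.454 to 4.19%). For CREB/ATF (3.73%, 1.72 to 6.97%) and NRF1 (2.07%, 0.677 to 4.77%) the intervals at strong members include the shares of all promoters. The sequences of the GC box and AP-2 are rich in G and C, and the part of base composition was not tested. CCAAT (NF-Y) was about level, at 35.6% and 36.4%.

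Sequences more typical of regulated promoters were less frequent at member promoters than in all promoters. TATAAA was present in 4.74% (4.19 to 5.36%, exact 95% binomial interval) of member promoters, in 9.75% of all promoters and in 10.2% (6.97 to 14.4%) of promoters under regions with a siFOXA1 peak. Above the rank cut-off it was 4.56% (2.30 to 8.02%) at strong members and 9.94% (5.79 to 15.6%) at regions with a siFOXA1 peak, intervals that overlap. TGANTCA (AP-1) was present in 3.49% (3.01 to 4.02%) of member promoters, 5.70% of all promoters and 7.42% (4.65 to 11.1%) of promoters under regions with a siFOXA1 peak. Above the rank cut-off the AP-1 share was 3.32% (1.44 to 6.44%) at strong members and 8.70% (4.84 to 14.2%) at regions with a siFOXA1 peak, intervals that overlap. AGATAA, bound by GATA factors, was present in 3.81% of member promoters and 7.63% of all promoters. Under regions with a siFOXA1 peak it was 4.24% (2.21 to 7.29%), close to the members. These sequences are poor in G and C, and the part of base composition in their shares was not tested.

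Weak and strong members differed in promoter sequence. Members at starts were divided by mean siNS rank into 4 groups of 1532 regions each, with 1165 to 1406 promoter windows per group. From the weakest to the strongest group, median GC content was 64.3%, 66.3%, 68.7% and 70.3%. ETS matches were present in 23.9%, 22.1%, 15.7% and 13.8% of windows, and YY1 matches in 6.35%, 3.97%, 3.26% and 2.13%. CREB/ATF matches went the same way, from 4.72% to 2.56%. CACGCG went the other way, with 15.0%, 19.8%, 20% and 26.2%. Forkhead matches were present in 1.46%, 1.98%, 2.54% and 2.92%, while GC content was higher in each next group, and the intervals of the first and last groups overlap (0.852 to 2.33% and 2.10 to 3.94%, exact 95% binomial). TATA boxes were about level, from 5.24% to 4.20%.

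**Figure D4:**
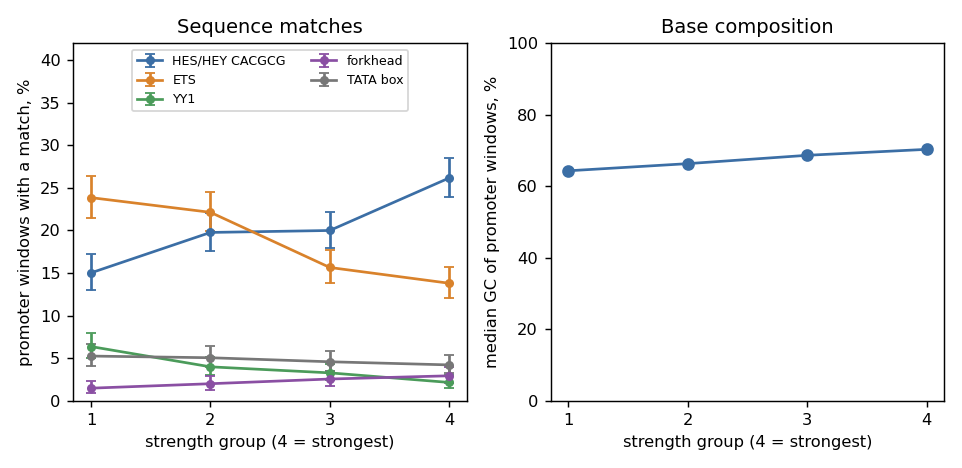
Left, share of promoter windows with a match (y, percent) in 4 groups of members by mean siNS rank (x, 4 is the strongest), with exact 95% binomial intervals over windows; right, median GC content of the same windows. ETS shares go from 23.9% to 13.8% and CACGCG shares from 15.0% to 26.2%, while median GC goes from 64.3% to 70.3%.

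Genes of the corepressor machinery to which TLE3 itself belongs often carried a member. Of 30 listed Groucho/TLE and corepressor genes, 21 had one (70.0%), beside 37.1% of all protein-coding genes. CTBP2 was the strongest. CTBP1, its paralog, had scores of 73.6 and 67.3 in siNS 1 and siNS 2, the histone deacetylase HDAC5 had 82.8 and 51.3, and KDM1A, a histone demethylase, had 75.02 and 48.7. TLE3 had 2 members at its own start, one upstream with scores of 54.5 and 24.6 (chr15:70098476-70100008) and one over the start with 20.3 and 14.1 (chr15:70095627-70098090). TLE2, TLE4, TLE5 and TLE6 also had members, with 48.7 and 46.3 at TLE5, the short family member. TLE1 differed in that its start region held peaks in all 4 libraries, with scores of 124, 74.0, 21.4 and 13.7 in siNS 1, siNS 2, siFOXA1 1 and siFOXA1 2. Over all 25 lists 437 distinct genes had a member, and 133 did with lists of equal length.

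Genes that define luminal breast cells also carried members, and several of their regions held siFOXA1 peaks. Among 26 luminal transcription factor genes 16 had a member (61.5%, exact 95% binomial interval 40.6 to 79.8%, beside 37.1% of all protein-coding genes), led by TFAP2C (112 and 93.4 in siNS 1 and siNS 2), TBX3 (127 and 78.7), GRHL1 (81.3 and 86.9) and MYB (62.1 and 59.3). GATA3, the luminal GATA factor, had a member over its start with 49.99 and 54.0 (chr10:8044926-8045644). FOXA1 had 1 member, 885 bp beyond its far end, with 26.3 and 16.7 (chr14:37587754-37588667). XBP1, a factor of the unfolded protein response, had 3 members and MYC had 2. ESR1, the oestrogen receptor gene, had no siNS consensus region at either end, and ERBB2 and KRT18 had control-only regions near ends of 2 or more genes and no member.

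Of 29 siNS consensus single-end regions of luminal factor genes, 21 (72.4%, exact 95% binomial interval 52.8 to 87.3%) were members, below 93.6% of all such regions. The 8 others lay at ELF3, OVOL2, GRHL2, TFAP2A, SPDEF and RARA. These regions were also strong, with a median rank of 87.7 over all 29 regions. Of 25 luminal structure genes 16 had a member (64.0%, 42.5 to 82.0%, beside 37.1%), led by the claudin gene CLDN3 (122 and 92.6), the plakophilin gene PKP3 (140 and 81.7), EPCAM (86.7 and 65.4) and the keratin gene KRT19 (43.2 and 50.1). Members made up 18 of the 26 regions of that list (69.2%, 48.2 to 85.7%), and the splicing regulators ESRP1 and ESRP2 were among those with a siFOXA1 peak.

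Notch, Wnt and receptor kinase genes gave some of the strongest members, but most of their members stood lower. The median rank of members was 72.2 for Notch, 67.6 for Wnt and 77.3 for receptor kinase genes, beside 68.0 for all members. For Wnt genes it was thus not above that of all members. In the Notch pathway 16 of 28 genes had a member (57.1%, exact 95% binomial interval 37.2 to 75.5%), and the lower bound lies close to the 37.1% of all protein-coding genes. The glycosyltransferase LFNG, the feedback inhibitor NRARP (162 and 134 in siNS 1 and siNS 2; 3 members), the ligand JAG2 (153 and 122) and the target HEY1 (126 and 58.7) led. Members were 24 of its 31 regions (77.4%, 58.9 to 90.4%), beside 93.6% of all single-end siNS consensus regions. The median rank of the 31 was 85.6, and strong regions held siFOXA1 peaks more often in the whole set. In this pathway regions at NOTCH1, JAG1, DLL4 and the target HES1 held siFOXA1 peaks. HES1 is a partner of TLE proteins, and the region upstream of it scored 542.5 and 367 in siNS 1 and siNS 2 and 61.3 and 51.0 in siFOXA1 1 and siFOXA1 2 (chr3:194133812-194135522). It also had 2 members further into the gene and at its far end, 569 and 1513 bp from a siFOXA1 peak, with 77.1 and 43.4 and with 8.75 and 6.61.

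Of 30 Wnt and TCF/LEF genes 20 had a member (66.7%, exact 95% binomial interval 47.2 to 82.7%, beside 37.1% of all protein-coding genes), led by the feedback inhibitor AXIN2 (213 and 118 in siNS 1 and siNS 2), the ligand WNT7B (100.4 and 52.2), the co-receptor LRP6 (84.5 and 34.7) and the receptor FZD1 (59.3 and 43.0). TCF7L2, the TLE-binding factor of that pathway, had 66.5 and 37.2. The ERBB and receptor kinase list had the highest share of the 25 lists, 29 of 38 genes (76.3%, 59.8 to 88.6%). It was led by the kinase MAPK3 (152 and 89.5) and the feedback inhibitors SPRY4 (129.8 and 73.9) and DUSP6 (111 and 53.6). ERBB3 had 51.5 and 39.995. Among androgen response and apocrine genes 12 of 25 had a member (48.0%, 27.8 to 68.7%), an interval that includes 37.1%. PMEPA1 (173 and 144) was on top, and 9 of the 25, KLK3, KLK2 and PIP among them, had no siNS consensus region at an end. Of all protein-coding genes 8933 of 19974 had none, so that count is not above the background.

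Genes of complexes that all cells use mostly had members in larger shares than the 37.1% of all protein-coding genes. Mitochondrial ribosomal proteins and respiratory complex I, counted below, were at 36.8% and 30.6%. The exact 95% binomial intervals of the lists that follow lay above 37.1%, except for translation initiation factors (36.6 to 71.2%). Luminal transcription factor genes, at 61.5%, had a similar share. Members were found at 23 of 38 cytosolic ribosomal protein genes (RPLP0 76.1 and 58.5), 20 of 34 proteasome genes (PSMD7 48.9 and 50.4), 24 of 40 spliceosome genes (SF3A3 70.1 and 30.5) and 25 of 42 RNA polymerase II and Mediator genes (MED23 58.9 and 44.8). For translation initiation factors the count was 19 of 35 (54.3%, EIF2B2 117 and 68.1), for nuclear pore genes 18 of 29 (62.1%, SEH1L 95.6 and 41.0) and for coat vesicle genes 22 of 36 (61.1%, CLTA 69.4 and 59.4). The median rank of members was 37.9 for the proteasome, 47.8 for mitochondrial ribosomal proteins and 50.2 for cytosolic ones. It was 56.5 for RNA polymerase II and Mediator, 63.7 for coat vesicles, 64.9 for the nuclear pore, 66.0 for the spliceosome and 68.5 for translation initiation factors, beside 68.0 for all members, 82.1 for luminal factors and 81.0 for Polycomb and Trithorax genes. In the proteasome, spliceosome, Mediator, complex I, replication and SWI/SNF lists none of the 12 to 27 siNS consensus single-end regions per list held a siFOXA1 peak. Members are 93.6% of all such regions, and the interval of each of these lists includes that share (83.2 to 100% for the proteasome, exact 95% binomial), so a count of 0 is near the background.

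Chromatin regulators were nearer the top. Of 33 SWI/SNF and remodelling genes 24 had a member (72.7%, beside 37.1% of all protein-coding genes), with the SWI/SNF subunit SMARCB1 at 159.8 and 88.9 in siNS 1 and siNS 2, BPTF at 133 and 63.7 and the ATPase SMARCA4 at 75.7 and 58.1. Of 31 Polycomb and Trithorax genes 20 had one (64.5%), led by the histone methyltransferase KMT2D (107 and 101) and CBX7 (107 and 76.0). In the cell cycle list 22 of 42 genes had a member (52.4%, exact 95% binomial interval 36.4 to 68.0%), CCND1 first. Other counts near the background were found for mitochondrial ribosomal proteins (14 of 38) and respiratory complex I (11 of 36), lists in which 12 genes each had control-only regions near ends of 2 or more genes and no member. Aminoacyl-tRNA synthetases (17 of 37) and replication and repair genes (21 of 46) lay between, with 13 and 16 such genes. Of all 19974 protein-coding genes, 3139 had control-only regions near ends of 2 or more genes and no member.

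Marker genes of other cell types carried members in shares that did not differ from the 37.1% of all protein-coding genes beyond counting error. The counts were 8 of 25 basal and myoepithelial genes and 8 of 25 mesenchymal genes (32.0%, exact 95% binomial interval 14.9 to 53.5%, each). They were 7 of 26 neuronal genes (26.9%, 11.6 to 47.8%) and 5 of 26 blood and immune genes (19.2%, 6.55 to 39.4%), and all 4 intervals include 37.1%. No siNS consensus region lay at an end of the defining basal genes KRT5, KRT14 and TP63, of VIM, or of PTPRC and CD14. The members that did occur included SNAI1 (99.9 and 44.2 in siNS 1 and siNS 2), ITGA6 (84.0 and 30.6), VAMP2 (81.9 and 50.8) and CD3G (56.2 and 108). Lists differ in how many genes have a neighbour whose end is also within 1 kb, which the rule leaves out, and shares between lists were not tested.

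**Figure D5:**
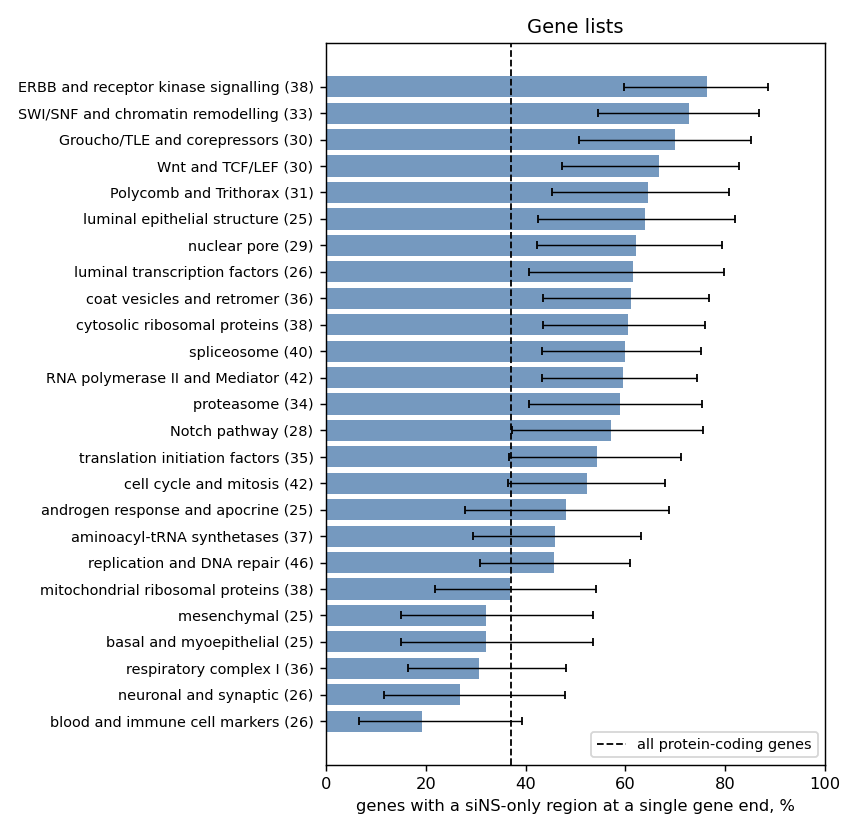
Share of genes in each of 25 lists (y, number of genes in brackets) with a member at an end (x, percent), with exact 95% binomial intervals over genes; the dashed line is the share among all protein-coding genes, 37.1%. ERBB and receptor kinase signalling is highest at 76.3% and blood and immune markers lowest at 19.2%.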

How the data were processed

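The series holds 6 libraries: 2 siNS and 2 siFOXA1 TLE3 ChIP libraries and 2 inputs, which were not analysed here and whose labels name the line as MDA-MB-454. For each ChIP library there is 1 list of peaks, called by the authors per library. The score is the authors' deposited value with no stated definition; it starts at 2.01 to 2.06 in each list and was used only for ranks within a list. Per the submitters' processing notes, Trim Galore, BWA 0.7.5a, SAMtools and MACS2 were used on hg38; thresholds, and whether inputs were used, are not given there. The file of siFOXA1 2 is numbered differently from its title, which was followed.

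Mitochondrial peaks (4, 3, 4 and 9 in siNS 1, siNS 2, siFOXA1 1 and siFOXA1 2) were left out. Positions are 1-based. Gene ends came from the RefSeq GRCh38.p14 gene table, and the start of a gene from the strand in the RefSeq promoter table, which has no entry for 4162 of 19974 genes. The 25 gene lists hold 819 symbols, all matched. The members and lists were chosen with earlier results of these data known. Named are the 12 top-ranked and 5 widest members, the 5 genes with most members, up to 4 top genes per list, members just inside and outside 1 kb, the 5 top regions with a siFOXA1 peak and 19 set genes; other genes named were chosen after their values were seen. Some items that the rule selects are left out of the text. Motifs were searched on both strands of 300-base windows, 19 in all, and may overlap each other. The depth of the libraries is unknown, since no list gives reads, and regions were not tested as replicates. Group means of library values were compared by an exact permutation test, and shares of regions have exact (Clopper-Pearson) 95% intervals. The labels call the replicates biological without saying what separates them, so p-values apply to these libraries only. The p-values given are the smallest that the design allows, and they do not measure the spread within a group. Alternatives were other score thresholds, widths, distances, overlaps, equal list lengths and leaving out each library. The merging and class rules were tested on simulated data and recovered 100% of 136 simulated members. Python 3.11.15, numpy 2.4.6, pandas 2.3.3, scipy 1.17.1 and matplotlib 3.10.9 were used.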

Additional observations from a re-analysis of the deposited data

How the results depend on the processing

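The count of 8038 members was within 1.5 times under each alternative except lists of equal length, where it was 2404. Leaving out 1 library at a time gave 8176 to 11161. The share of single-end siNS consensus regions without a siFOXA1 peak (93.6%) was 84.8% with equal lists, 95.8% with only peaks from the median score upwards, 92.5% with peaks widened by 250 bp, 92.5% within 2 kb, and 94.1 to 95.4% with 1 library left out. The share of members at the start (94.2%) was 95.9% with equal lists, 95.3% above the median score, 95.3% within 500 bp, 92.5% within 2 kb, and 89.1 to 94.0% with 1 library left out. Listed genes with a member (437 distinct) were 133 with equal lists and 444 to 515 with 1 library left out. Averaged over the siNS libraries, the median best-peak width of members (821 bp) was 1176.5 bp and the median score (21.7) was 48.0 with equal lists. These follow from keeping only the strongest peaks.

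Among promoters, all windows of genes with a member at the start gave 79.1% CpG-rich, 17.5% with ETS and 75.1% with a GC box. Above the median score CACGCG was 22.99%, ETS 15.9% and the GC box 79.5%. For members above the rank cut-off, chosen after seeing the data, forkhead was 3.32%, CACGCG 30.3% and ETS 12.03%. The difference between libraries in the share at starts was 17.5 to 19.8 points with 1 library left out. With replicate number as a block it was 18.6 points with an exact p of 0.5, the smallest that 2 pairs allow; whether the numbers pair the cultures is not stated, and with 2 pairs the pairing was not tested further. The cause of the moves under other settings was not tested.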

Other observations

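Families of genes that share the start of their symbol, chosen after seeing the data and with at least 40 genes each, differed widely in how often a member lay at an end. Members were found at 28 of 42 UBE genes of ubiquitin conjugation (66.7%), 46 of 74 RAB genes of vesicle traffic (62.2%) and 235 of 517 ZNF zinc finger genes (45.5%), beside 37.1% of all protein-coding genes. They were found at 6 of 55 keratin genes (KRT, 10.9%), 2 of 94 keratin-associated genes (KRTAP, 2.13%) and 1 of 392 olfactory receptor genes (OR, 0.255%). Genes of a family often lie in clusters and share sequence, so they are not independent.

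By chromosome, the share of protein-coding genes with a member was highest on chromosomes 18 (43.3%) and 14 (43.0%) and lowest on 21 (28.0%) and X (28.7%). The share of single-end siNS consensus regions with a siFOXA1 peak went from 4.06% on X to 9.92% on chromosome 22.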
